A study of Canis lupus familiaris with 10 samples.

Results

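The genes described here encode the MHC class II antigen-presentation machinery of the dog and were measured in cultured hemangiosarcoma cells. They are the α chain DLA-DRA, the β chain named HLA-DRB1 by the array annotation, the α chain DLA-DQA1, the peptide exchange factor chains DLA-DMA and DLA-DMB, the invariant chain CD74 and the transactivator CIITA. All probe sets that the annotation assigned to these 7 genes were taken, which gave 15 of the 42924 probe sets besides the array controls and 7 of the 15115 genes named by a single symbol. The genes were chosen with their signals on these same 10 arrays known, in particular which cultures had signal and which did not, so those levels are given as a description with no test.

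Each array held RNA of a primary culture from a splenic hemangiosarcoma, a malignant tumor with features of vessel-forming cells, grown for as few passages as were available and frozen before use. Tucker, Journey, Frog, ChadG8, ChadG6 and ChadG4 made up the 6 cultures of Golden Retrievers. The 3 cultures of non-Golden Retrievers were ChadP9 from a Portuguese Water Dog, Dal4 from a Dalmatian and Joey from a Rottweiler. DD1 came from a Golden Retriever mix and belonged to neither group. All 10 cultures were tumor cells without a stated treatment, and the labels give no age. The breed field of Joey repeats the dog's name, and its breed was taken from its title. Each dog gave 1 array, so a difference between dogs cannot be told apart from one between cultures or arrays, and each non-Golden Retriever breed had 1 dog. The study lists all 3 non-Golden Retrievers as male, and 3 of the 6 Golden Retrievers. It also lists an age for each dog, which was not used here. According to the study Frog was a great aunt of Journey, and the tests treated both as independent dogs.

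Some features of the cultures touch every result below. Of 12 endothelial markers, 4 stayed under the background level in all cultures, PECAM1 (4.03 to 4.72 on the log2 scale) among them. Joey had 4 of the 12 above background and the other cultures had 5 to 7. The collagen gene COL1A2 was at 14.00 to 14.32. Dal4, listed as male, had a signal of 2.95 at 1 of the 3 probe sets named EIF2S3, near the 3.08 to 3.33 of the 3 females and unlike the 10.15 to 10.60 of the other 6 males. At the remaining probe sets Dal4 was at 12.56 and 11.47, under the females (12.98 to 13.23 and 12.01 to 12.12). There it lay within the other males (12.22 to 13.18 and 10.89 to 12.19). The arrays measured RNA of whole cultures, so fewer cells of a type and less RNA per cell cannot be told apart.

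MHC class II molecules are pairs of an α and a β chain that display peptides from the endosomal route to helper T cells. The invariant chain CD74 guides newly made pairs to endosomes and fills their groove, and the DM pair removes its remnant so that peptides can bind. CIITA, itself induced by interferon gamma in many cell types, works with the RFX and NF-Y factors on the promoters of these genes. Dendritic cells, macrophages and B cells carry class II constantly, whereas most other cells make it only when stimulated.

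Both probe sets of DLA-DRA, 1 of 2 of DLA-DQA1 and 2 of 3 of CD74 were above background in a single culture, Joey, where HLA-DRB1 was also far above its level elsewhere. DLA-DMA and CIITA and 2 of 3 DLA-DMB probe sets had signal in most or all of the 10 cultures. Above background means here that the signal passed the 40th percentile of all probe sets on that array, a level between 5.02 and 5.16. By this measure 5 of the 15 probe sets were above background in Joey only, 5 were in all 10 cultures, 3 were in none and 2 were in some. Joey had 12 of 15 above background. The 6 Golden Retrievers had 5 to 7, ChadP9 had 7, Dal4 had 6 and DD1 had 6.

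**Figure D1:**
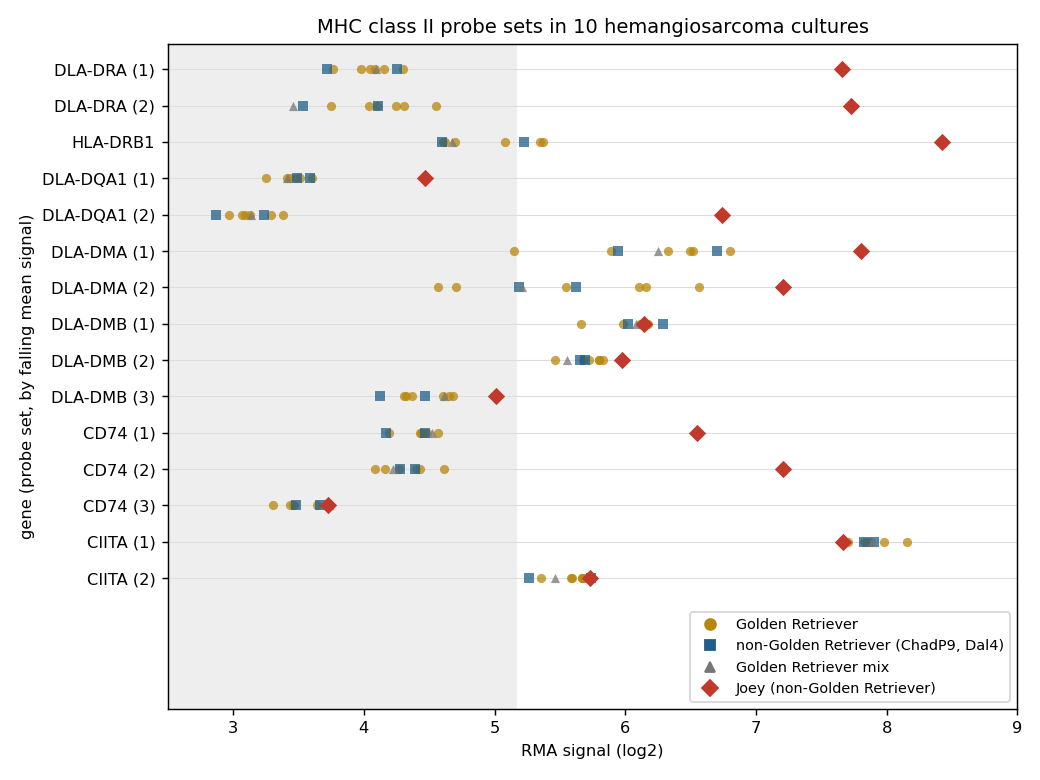
RMA signal (log2, horizontal axis) of the 15 MHC class II probe sets, with 1 point for each of the 10 cultures and the probe sets of a gene numbered by falling mean signal. The shaded area ends at 5.16, the highest of the 10 background levels, and Joey lies to the right of all other cultures for both DLA-DRA rows, the HLA-DRB1 row, DLA-DQA1 (2), CD74 (1) and CD74 (2).

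DLA-DRA encodes the α chain shared by all DR molecules, and both of its probe sets separated Joey from every other culture. At the probe set with the higher mean, the Golden Retrievers had a lowest signal of 3.77, a median of 4.07 and a highest signal of 4.30. ChadP9 was at 4.25, Dal4 at 3.72, Joey at 7.66 and DD1 at 4.09. Joey was 3.36 log2 units above the next culture, and the other 9 cultures, of either breed group, all lay under background and overlapped. The second probe set gave 3.75, 4.17 and 4.55 as lowest, median and highest Golden Retriever values, with ChadP9 at 4.11, Dal4 at 3.53, Joey at 7.72 and DD1 at 3.46. Here again Joey alone was high, by 3.17 log2 units. Signals under background are only bounds, so the mean of the other 9 cultures was also taken with each at its own background level where it lay lower. Against that mean DLA-DRA was at least 5.93-fold and at least 6.21-fold higher in Joey at its first and second probe sets.

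HLA-DRB1, the β chain that pairs with DLA-DRA, was highest in Joey as well. The Golden Retrievers ranged from 4.61 to 5.37 with a median of 4.89, and ChadP9 was at 5.23, Dal4 at 4.60, Joey at 8.42 and DD1 at 4.67. Joey exceeded the next culture, Journey, by 3.05 log2 units, which is 8.28-fold. Journey at 5.37, Tucker at 5.35 and ChadP9 passed the background level by a small margin, and the other 6 cultures of both groups lay under it.

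DLA-DQA1 encodes the α chain of DQ molecules, the other main class II pair. Its probe set of unique probes had Golden Retriever signals from 2.97 to 3.38 with a median of 3.11, against 3.24 in ChadP9, 2.87 in Dal4, 6.74 in Joey and 3.14 in DD1. Joey again stood alone, 3.36 log2 units over the next culture and at least 3.14-fold over the background-bounded mean. The second DLA-DQA1 probe set, whose name marks probes shared with related transcripts, was at 4.47 in Joey and at 3.25 to 3.60 elsewhere. That signal was the highest of the 10 but stayed under background, so the probe sets of DLA-DQA1 differed on whether the gene was on in Joey. Its β partner DLA-DQB1 was under background in all cultures as well, at 4.96 in Joey and 4.20 to 4.71 in the others.

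CD74 is the chaperone that class II pairs need on their way to endosomes. The probe set of highest mean had Golden Retriever signals of 4.20 to 4.57 with a median of 4.44, and was at 4.46 in ChadP9, 4.17 in Dal4, 6.55 in Joey and 4.51 in DD1. The other responsive probe set had 4.08 to 4.62 with a median of 4.33 in the Golden Retrievers, 4.28 in ChadP9, 4.39 in Dal4, 7.21 in Joey and 4.22 in DD1. Joey was above all other cultures by 1.98 log2 units at the first, at least 2.75-fold over the bounded mean, and by 2.59 at the second, at least 4.33-fold. The CD74 probe set of lowest mean was under background everywhere, at 3.73 in Joey and 3.30 to 3.73 in the others, and did not separate Joey.

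The DM chains form a class II-like molecule that stays in endosomes and edits the peptide load. DLA-DMA had signal in the cultures of both breed groups. At its first probe set the Golden Retrievers had 5.15 at the lowest, 6.41 at the median and 6.81 at the highest, with ChadP9 at 6.70, Dal4 at 5.95, Joey at 7.80 and DD1 at 6.25. At the second probe set the Golden Retriever values were 4.57, 5.83 and 6.56, with ChadP9 at 5.62, Dal4 at 5.19, Joey at 7.21 and DD1 at 5.21. Joey was highest at both, by 1.00 and 0.65 log2 units, and Tucker came next at both. Among the Golden Retrievers ChadG4 and ChadG8 were the lowest at both, and at the second probe set they lay under background, with ChadG4 at 4.71 and ChadG8 at 4.57.

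DLA-DMB, the partner chain of DLA-DMA, varied far less. Its first probe set spanned 5.66 to 6.29 in the other cultures with Joey at 6.14, and Dal4 had the highest signal. Its second probe set was at 5.98 in Joey and 5.46 to 5.83 elsewhere, and the one of lowest mean, under background in all 10 cultures, at 5.01 in Joey and 4.13 to 4.68 elsewhere. Joey was thus highest at the last pair but by under 1 log2 unit.

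CIITA, which sets class II transcription in most cells, had signal in every culture and did not set Joey apart. Its first probe set was at 7.71 to 8.15 in the Golden Retrievers with a median of 7.86, at 7.90 in ChadP9, 7.82 in Dal4, 7.67 in Joey and 7.88 in DD1. Joey had the lowest signal of the 10 at this probe set. The second was at 5.35 to 5.68 with a median of 5.63 in the Golden Retrievers, 5.74 in ChadP9, 5.26 in Dal4, 5.73 in Joey and 5.47 in DD1. Both CIITA probe sets carry names that mark shared probes, so neither is certain to read CIITA alone.

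The measured signal of Joey exceeded that of every other culture by at least 2 log2 units at 5 of the 15 class II probe sets, from 4 of the 7 genes. On the whole array this held for 18 of 42924 probe sets, 0.0419%, and no reading is drawn from the contrast since the genes were chosen with these levels known. At 4 of the 5 the next culture lay under background, where a signal is only a bound. With each other culture taken at no less than its background level, the margin of 2 was passed at 4 class II probe sets, both of DLA-DRA, HLA-DRB1 and 1 of CD74, among 11 on the array (0.0256%), and that of DLA-DQA1 was 1.58. HLA-DRB1, with 3.05, was then the 1 probe set of the array with a margin of 3. TFAP2C, a transcription factor gene of the AP-2 family, followed the DLA-DRA probe sets with 2.47. Of the 12 class II probe sets above background in at least 1 culture, 9 were highest in Joey, against 11.6% of such probe sets on the array. No other culture exceeded all others by 1 log2 unit at any class II probe set, although ChadG4 did so at 475 probe sets of the array and Dal4 at 324, against 103 for Joey.

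The comparison of breeds asked whether Golden Retriever tumors carried class II transcripts at another level than tumors of other breeds. In the limma fit of 6 Golden Retrievers against 3 non-Golden Retrievers, the 7 class II probe sets that passed the filter on low signals gave 0 calls at an adjusted p under 0.05. None of them (0 of 7) had an unadjusted p under 0.05 either. The methods' t-test gave 0 calls too. Over the array 1 of 26891 tested probe sets was called, 0.00372%, and 1699 had an unadjusted p under 0.05, 6.32%. The groups did not overlap at 2.45% of the tested probe sets and at 0 of the 15 class II probe sets. The other 8 class II probe sets, all DLA-DRA, DLA-DQA1 and CD74 probe sets among them, were too low in most cultures to be tested. A fit with no filter tested all 15 and called 0.

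HLA-DRB1 had the lowest adjusted p of the tested class II probe sets. Golden Retrievers averaged 4.95 ± 0.36 (SD, n = 6) and the other breeds 6.08 ± 2.05 (SD, n = 3), which differ by -1.13 log2 units (SE 0.70, limma adjusted p = 0.797). With Joey left out the difference was 0.04. With Dal4 left out, ChadP9 and Joey were the non-Golden Retrievers. In that limma fit HLA-DRB1 and the first DLA-DMA probe set had an unadjusted p under 0.05 (0.0242 and 0.0451). Both had an adjusted p of 0.999. These were 2 of the 7 class II probe sets tested, against 968 of 26891 over the array in the same fit. No reading is drawn from them, since the genes were chosen with the levels in Joey known.

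DLA-DRA followed the same course. At the probe set of higher mean, Golden Retrievers averaged 4.05 ± 0.18 (SD, n = 6) and the other breeds 5.21 ± 2.14 (SD, n = 3), and their difference of -1.16 log2 units became 0.07 without Joey. For DLA-DQA1 the difference at the probe set of unique probes went from -1.13 to 0.10, and for the second CD74 probe set from -0.97 to -0.01. Without Joey, all cultures left at these 3 probe sets lay under background, so the remaining differences have no reliable sign.

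None of the other tested probe sets passed the threshold either. DLA-DMA had log2 differences of -0.62 (SE 0.44, limma adjusted p = 0.821) and -0.40 (SE 0.56, limma adjusted p = 0.920), which became -0.13 and 0.20 without Joey. The tested DLA-DMB probe sets had differences of -0.11 and -0.06. The CIITA probe sets had 0.10 and 0.01.

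**Figure D2:**
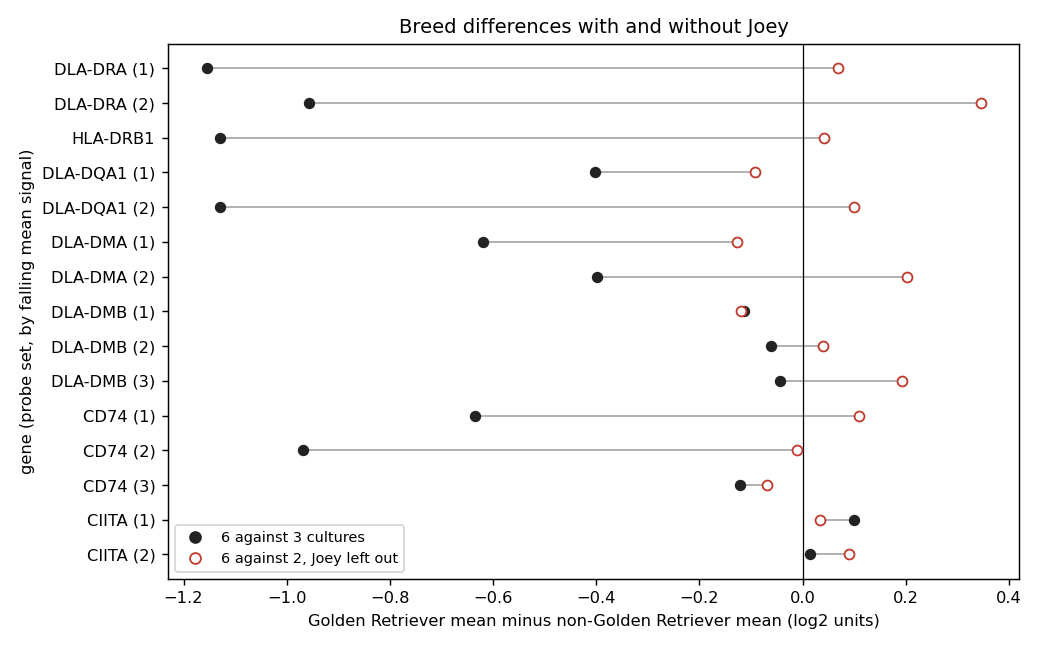
Difference of the mean log2 signal, Golden Retriever minus non-Golden Retriever, for each of the 15 class II probe sets (6 against 3 cultures, filled points; 6 against 2 with Joey left out, open points). The filled points reach -1.16 and the open points lie between -0.13 and 0.35, where for DLA-DRA, DLA-DQA1 and CD74 all cultures left are under background.

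Dog class II genes lie together on chromosome 12 of the assembly UU_Cfam_GSD_1.0, except CD74 on chromosome 4 and CIITA on chromosome 6. The genes from DLA-DRA to DLA-DOA and those within 200 kb on either side, in the order of that assembly, were looked at for a shared shift in Joey. Of the 14 probe sets of the 8 class II genes there, 9 were above background in at least 1 culture. Joey was highest at 7 of these 9, at 4 of them by at least 1 log2 unit. Of the 52 probe sets of the 20 other genes 42 were above background in at least 1 culture, and Joey was highest at 13 of the 42 but at 0 by at least 1 log2 unit, the widest margin being 0.74. On the array the share was 11.6%. Joey was highest at all 4 probe sets of DAXX, a chromatin chaperone gene, by 1.02 to 1.39 over the median of the other cultures, and at 5 of 7 of BRD2, a bromodomain protein gene. PSMB9, a proteasome subunit gene beside TAP1, was at 5.38 in Joey, the lowest of the 10 cultures, against 5.44 to 7.06 elsewhere.

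**Figure D3:**
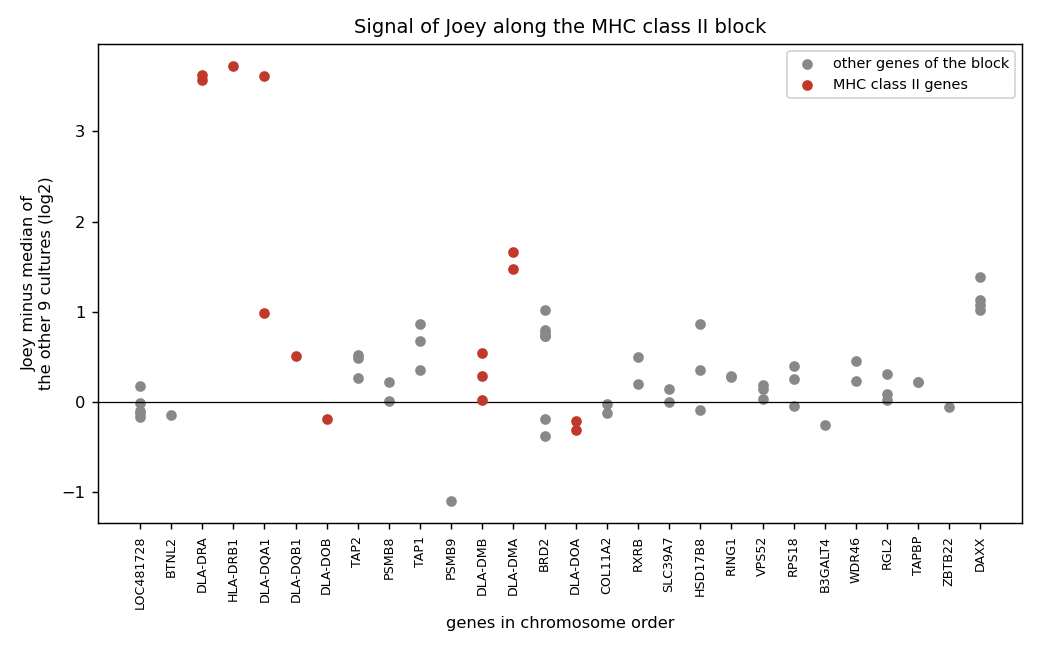
Signal of Joey minus the median of the other 9 cultures (log2) for each probe set of the 28 genes around the class II block, in chromosome order of the assembly UU_Cfam_GSD_1.0. The DLA-DRA and HLA-DRB1 probe sets and 1 of DLA-DQA1 lie at 3.58 to 3.73, and those of the 20 genes that are not class II lie from -1.10 to 1.39.

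The class II chains not among the 7 genes gave little signal apart from 1 probe set of DLA-DOA. DLA-DOA, a chain that restrains DM, was at 6.66 in Joey and 6.64 to 7.20 elsewhere at that probe set. Its other probe set was under background in all cultures, at 4.03 in Joey and 4.09 to 4.62 elsewhere. The partner chain DLA-DOB was under background in all cultures at 3.32 to 3.76, as DLA-DQB1 was. Over the list of class II chains, 4 of 9 genes were tested and 0 were called in either direction by breed. The median difference was -0.37 over the 4, against -0.02 over the 11143 genes tested, and it was -0.04 with Joey left out.

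Of the transcription factors that act on class II promoters, 8 of 8 were tested and 0 were called, and their median difference was -0.05. NFYB, a subunit of the NF-Y complex, was at 10.40 in Joey and 8.89 to 10.18 elsewhere, with a difference by breed of -0.66 (limma adjusted p = 0.774). NFYA was also highest in Joey, at 7.35 against 6.01 to 7.04. RFX5, a subunit of the RFX complex, was at 7.38 in Joey and 6.53 to 7.49 elsewhere, so within the range of the other cultures. NFYC, the remaining NF-Y subunit, was at 7.77 in Joey and 6.85 to 7.99 elsewhere.

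Genes of the endosomal route that supplies class II with peptides were on in nearly all cultures. All 9 tested genes had a higher mean in Golden Retrievers, with a median difference of 0.33 against -0.02 over all tested genes, but 0 were called. LGMN, an endosomal protease, had a difference of 0.86 (limma adjusted p = 0.774), with 9.88 in Joey and 9.16 to 11.13 elsewhere. LAMP1, a lysosomal membrane protein, had 0.50 (limma adjusted p = 0.774). CTSS, the protease that trims the invariant chain, was at 5.63 in Joey, against 4.85 to 6.99 in the others. Joey was highest at 0 of these 9 genes, against 1542 of the 15115 genes on the array, and no reading is drawn from so short a list.

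Interferon gamma is the usual inducer of class II outside immune cells. IFNG itself was under background in all 10 cultures, at 3.60 to 3.98. IRF1, a transcription factor induced by interferon gamma, was highest in Joey at all 3 of its probe sets, at 8.36 against 7.09 to 7.80, at 7.32 against 5.31 to 6.66 and at 7.49 against 5.51 to 6.50. JAK1, a kinase of the receptor, was at 12.57 in Joey and 12.16 to 12.51 elsewhere. PTPN2, a phosphatase that limits this signaling, was at 9.58 in Joey and 7.84 to 9.75 elsewhere. Of the 12 genes of the list on the array, 8 were tested by breed, 0 were called and the median difference was -0.16, which became 0.08 with Joey left out.

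Joey had the highest signal at 0 of the 14 other interferon-induced genes on the array, of which 3 were under background in all cultures. Over the whole array Joey was highest at 1542 of 15115 genes. The 0 of 14 is near that share, and no reading is drawn from it. IDO1, a tryptophan-degrading enzyme, was highest in ChadG8 at 9.47, and was at 4.97 in Joey, where it lay under background. GBP1, a guanylate-binding protein, was highest in DD1 at 6.41 and was at 4.15 in Joey. IFI44 had its lowest signal in Joey, 6.70 against 7.06 to 8.99. By breed 10 were tested and 0 called, with a median difference of 0.44. IDO1 had a difference of 1.16 (limma adjusted p = 0.828), which was 0.47 with ChadG8 left out.

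Class I assembly genes serve the parallel route to cytotoxic T cells, and 4 of 10 had their highest signal in Joey, none by 1 log2 unit. Over the array Joey was highest at 1542 of 15115 genes, and no reading is drawn from so short a list. TAP1, a peptide transporter subunit, was at 8.78 in Joey and 7.33 to 8.57 elsewhere at its probe set of highest mean. At the next TAP1 probe set Tucker was highest, by 0.003 log2 units over Joey. At the one of lowest mean Joey was highest by 0.07. ERAP1, a peptide-trimming enzyme, was at 8.18 in Joey against 6.74 to 7.85. B2M, the class I light chain, was at 13.17 in Joey and 11.91 to 13.18 elsewhere. All 10 were tested by breed, with 0 called and a median difference of -0.05.

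Costimulatory and checkpoint ligands, with which professional presenting cells back a class II signal, were looked at in the same way. CD80, CD86 and CD40 were under background in all 10 cultures. ICAM1, an adhesion molecule, was lowest in Joey, at 9.36 against 9.93 to 12.60. Joey was highest at 0 of the 10 genes, 6 of which were under background in all cultures, against 1542 of 15115 genes on the array. By breed 4 were tested with 0 called and a median difference of 0.07. Genes of surface turnover and uptake gave 3 tested and 0 called, with a median difference of 0.05. MARCHF8, a ubiquitin ligase that removes class II from the surface, was at 7.78 in Joey and 6.92 to 8.73 elsewhere.

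Lists of markers of cells that carry class II constantly had a mean signal in Joey within the range of the other cultures. Of 14 monocyte and macrophage markers 6 were above background in Joey, against 6 to 7 in the other cultures, and their mean signal was 5.01 against 4.87 to 5.28. Golden Retrievers spanned 4.96 to 5.28 and non-Golden Retrievers 4.87 to 5.12. Of these markers 7 were under background in all cultures, CD163, ITGAM, TYROBP and SPI1 among them. CD14 was at 7.50 in Joey and 5.98 to 7.98 elsewhere. The highest-mean probe sets of CD68 and CSF1R were above background in all 10 cultures, with CD68 at 5.78 in Joey and 5.57 to 6.98 elsewhere. The other CSF1R probe set was under background in all cultures. Joey was highest at 1 of the 14 markers. The pan-leukocyte gene PTPRC was under background in all cultures, and 1 of 6 leukocyte markers was above it in Joey, against 1 to 2 elsewhere, with a mean signal of 5.13 against 4.84 to 5.83.

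Dendritic cell markers had 1 of 8 above background in Joey, against 1 to 3 elsewhere, and a mean of 4.29 against 4.21 to 4.50. B cell markers had 1 of 6, against 0 to 1, and a mean of 4.20 against 4.08 to 4.40, with MS4A1 and CD79A under background in all cultures. T cell markers had 3 of 7, against 3 to 5, and a mean of 5.07 against 5.04 to 6.24. No list of immune cell markers was highest in Joey.

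Markers of vessel and stromal cells were looked at as well. Endothelial markers had 4 of 12 above background there, against 5 to 7 elsewhere, and a mean of 4.73, the lowest of the 10 cultures, against 4.80 to 5.51. Fibroblast markers had 8 of 8, against 7 to 8, and a mean of 11.47 against 10.40 to 11.67. Smooth muscle markers had 4 of 7, against 4 to 6, with a mean of 7.43 against 6.45 to 9.12, and CNN1, a contractile protein gene, was lowest in Joey at 5.11 against 5.86 to 11.02. Whether the lower endothelial signal had a part in the class II signal of Joey was not tested.

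**Figure D4:**
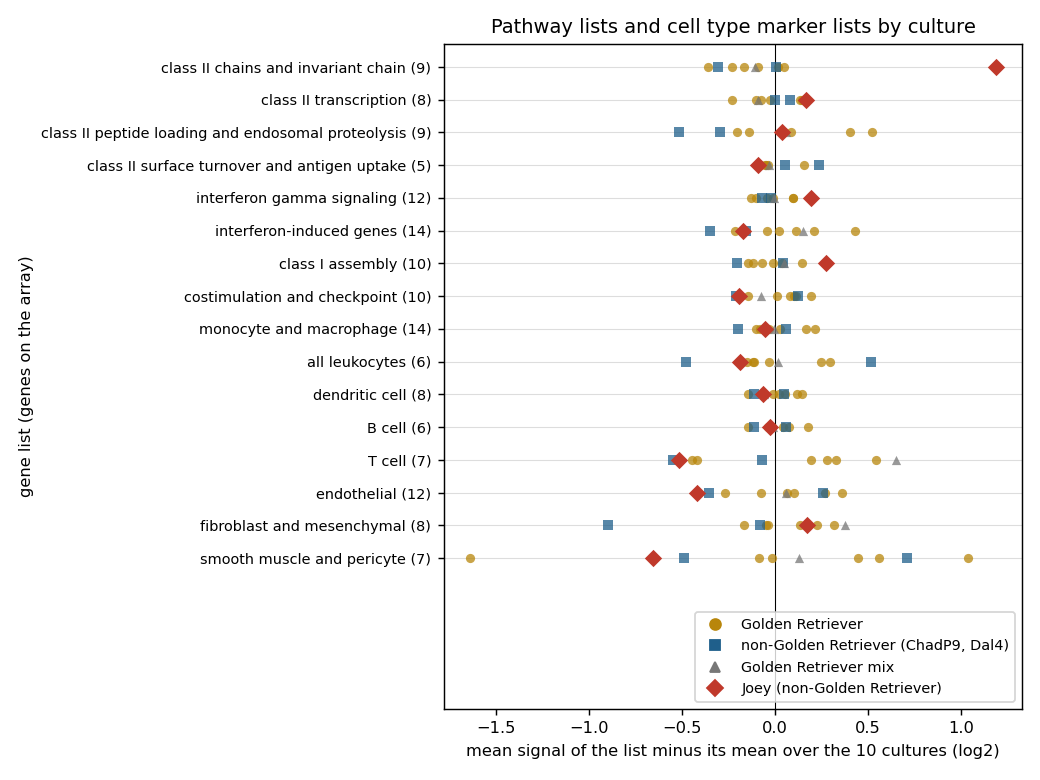
Mean log2 signal of each gene list in each culture minus its mean over the 10 cultures (1 probe set per gene, the number of genes on the array in parentheses). Joey lies apart from the other cultures for the class II chains, at a mean of 6.22 against 4.67 to 5.08, and within or next to their range for the leukocyte lists. By smaller margins Joey was also highest for class I assembly (8.45 against 7.97 to 8.32) and interferon gamma signaling (7.87 against 7.54 to 7.77). The same held for class II transcription (7.97 against 7.58 to 7.95), and Joey was lowest for the endothelial list (4.73 against 4.80 to 5.51).

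Genes were ranked by how closely their profile over the 10 arrays followed that of the DLA-DRA probe set of higher mean, as the root mean square difference of the centered log2 signals. The closest class II probe sets were that of unique probes of DLA-DQA1 at 0.170, HLA-DRB1 at 0.232, the second of DLA-DRA at 0.269 and the second of CD74 at 0.286. The other DLA-DQA1 probe set was at 0.813, and the other CD74 probe sets were at 0.469 and 1.05. DLA-DMA was at 0.775 and 0.876, and DLA-DMB and CIITA were at 0.931 to 1.16, near the median of 1.14 over all tested probe sets. These arrays share 1 high culture, so a small difference says mainly that a gene was high in Joey.

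Outside the class II genes and among probe sets that passed the filter, the 10 closest genes were ATRNL1 (0.495), CLCN3 (0.580), LOXL4 (0.588), TRIM36 (0.599), HOXA7 (0.608), IL1RAP (0.622), CIDEB (0.625), ENPP4 (0.641), ADCY4 (0.649) and TYW5 (0.669). All had their highest signal in Joey, with ATRNL1 at 7.84 there and 5.16 to 6.34 elsewhere and HOXA7, a homeobox gene, at 7.90 and 4.26 to 5.84. The filter removes genes that are under background in all but a single culture. Without it the closest were TAC1 (0.169), a neuropeptide precursor gene at 6.85 in Joey and 3.30 to 3.97 elsewhere, then TFAP2C (0.235) and RHCE (0.330).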

How the data were processed

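RNA of 10 hemangiosarcoma cultures was hybridized to Affymetrix Canine_2 arrays, 1 array per dog. The authors deposited log2 signals per probe set made with RMA (the submitters' notes also name affy, with versions not given in the sources used here), which background-corrects, quantile-normalizes and summarizes probes, so small shifts between arrays are removed and low signals are compressed. Depth does not apply to arrays, and their number limits the precision. Controls (111 probe sets) were left out. Tested were the 26891 probe sets that passed the 40th percentile on 3 or more of the 10 arrays, which 7 of the 15 class II probe sets passed. A probe set that passes only through the group where it is high had to differ. Golden Retrievers were compared with non-Golden Retrievers, DD1 left out, by two-sided limma 3.58.1 tests in R 4.3.3 with Benjamini-Hochberg adjustment, checked on simulated data. Tables were made with pandas 2.3.3 and numpy 2.4.6 in Python 3.11.15, and plots with matplotlib 3.10.9. Gene lists took 1 probe set per gene. For breed differences it was the tested one of highest mean. For list means by culture and counts above background or highest in Joey it was the one of highest mean, tested or not. The p-values set the breed difference against the spread of single arrays within the groups, where dog, culture and array cannot be told apart.

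The class II genes, the gene lists and the tests were chosen with earlier results of these data known. Named were all class II probe sets and the 10 closest genes outside the class II genes. The list genes to be named were those called, with the largest breed differences or closest to DLA-DRA (up to 3 each). Some of these list genes are not named above, IFNGR2 (difference 0.27) and IFI44L (0.72) among them. Other genes named, such as IRF1 probe sets, markers and neighbors on chromosome 12, were chosen after their values were seen. The annotation of the array names 29254 probe sets by 1 symbol, 439 by several and 13231 by none. Alternatives were the filter, the scaling, the methods' t-test, each culture left out, both placements of DD1, males only, the background percentile, and the anchor and filter of the profile ranking. Margins of 1 and 3 log2 units beside 2 were added after seeing the data. No promoter or protein sequence was analysed here.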

Additional observations from a re-analysis of the deposited data

Results flagged for a closer look

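Of the 15 class II probe sets, each checked for a Golden Retriever culture far from the other 5 at its lowest or highest end, 1 stood out. At the second CIITA probe set, ChadG4 had the lowest signal, 5.35, and its gap to the next culture was 0.700 of the whole range of 5.35 to 5.68. Chance flags about 1 in 20 such groups. The value lies above background.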

How the results depend on the processing

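The number of class II probe sets called by breed was 0 in every alternative run, as was the number of genes called in each of the 8 pathway lists. Over all tested probe sets, the main count of 1 became 2 with the methods' t-test, 0 with DD1 counted as a non-Golden Retriever, and 1 to 2 when each culture was left out in turn, the 2 being without Joey. Among tested class II probe sets, the direction of the breed difference turned for HLA-DRB1 (-1.87 to 0.041 over the cultures left out), the second DLA-DMA probe set (-0.81 to 0.20) and the second DLA-DMB probe set (-0.12 to 0.040), each above 0 without Joey. It turned without Joey too at 5 untested probe sets (DLA-DRA 0.07 and 0.35, DLA-DQA1 0.10, CD74 0.11, DLA-DMB 0.19), where the cultures left all lay under background. The second CIITA probe set, at 0.01, ran from -0.14 to 0.10 over the cultures left out, was -0.0036 with DD1 counted as a Golden Retriever and -0.038 in males only. The cause was not tested. At the 30th percentile as background, ChadG4 had 10 and ChadG8 had 8 class II probe sets above it. At the 50th percentile ChadG4 had 1, ChadG8, Frog, ChadP9, Dal4 and DD1 had 3 each, and Journey had 4. At the 60th percentile ChadG4, ChadG6, ChadG8, Frog, Journey, Dal4 and DD1 had 1 each, ChadP9 had 2 and Tucker had 3. Joey had 14, 11 and 8 at the 30th, 50th and 60th percentiles and the most class II probe sets above background at each of the 3. Margins of 1 and 3 log2 units, added after seeing the data, gave 6 and 4 class II probe sets in Joey in place of 5, and a floor at background gave 4. The median difference of a list kept its sign with each culture left out for the class II chains, peptide loading and interferon-induced lists. It changed sign for the transcription (-0.12 to 0.01), turnover (-0.05 to 0.17), interferon gamma (-0.24 to 0.08), class I (-0.20 to 0.05) and costimulation (-0.02 to 0.16) lists. Of the 10 genes closest to DLA-DRA, 4 were shared when CD74 was the anchor and 1 without the filter.

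With 3 non-Golden Retrievers and 1 of them setting the class II differences, a missed threshold does not show that the breeds are alike. Signals under background have no reliable order, and RMA does not state which cultures lack a transcript. Class II levels in Joey rest on 1 array. No paired analysis was possible because each array came from a different dog.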
